A study of Homo sapiens with 22 samples.

Results

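The comparison set cells carrying VPRP with a non-targeting guide against cells carrying VPR with a guide to HBB, the beta-globin gene, in RNA sequencing of HEK293, a line derived from human embryonic kidney. Both are fusions to dCas9, a Cas9 that binds DNA where its guide RNA directs it without cutting. VPR joins the activation domains VP64, p65 and Rta, and VPRP adds the acetyltransferase p300 (gene EP300) to VPR, so the groups differ in p300 and also in the guide. This pair was chosen with the data known, since both groups express MAGEA10 as WT does. The members are the 4 libraries whose labels name these groups, out of 22 samples and 12 RNA libraries in the series, and all 16694 genes that passed the count filter of the 48162 gene IDs in the deposited table. The other RNA groups carried the HBB guide with VPRP, with p300 alone or with p300 D1399Y, a substitution that impairs catalysis, and WT carried a guide, not named in the labels, and no fusion. Fusions were induced with dox for 48 hours, cells were sorted for GFP and BFP (WT for BFP alone), and each group had 2 libraries.

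p300 is a coactivator that acetylates histones, among them histone H3 at enhancers and promoters, and acetylated lysines are read by bromodomain proteins that help RNA polymerase II to start and elongate. Histone deacetylases remove the mark. VPR recruits the transcription machinery through its activation domains and carries no acetyltransferase of its own.

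Total counts were 15470279 and 16958062 in VPRP non-target cells, against 16325242 and 15287744 in VPR cells, and the 12 libraries spanned a ratio of 1.17. Levels are in CPM, read counts scaled to library size with TMM factors. Changes are on the log2 scale and were tested with edgeR's quasi-likelihood method, with p-values adjusted over all genes tested after Benjamini and Hochberg. A gene was called at an adjusted p under 0.05. The series describes the libraries as biological replicates, but with 2 in a group a p-value measures only the spread between these samples. That spread was estimated jointly from all 12 libraries. The variance between replicates was 2.37 times the Poisson value in VPRP non-target cells and 5.05 times in VPR cells, the widest of the 6 groups. The joint estimate makes no separate allowance for VPR cells. HEK293 markers were present in all 4 libraries, among them VIM with 58.5 and 60.4 CPM in VPRP non-target cells, against 99.6 and 93.5 CPM in VPR cells, while the renal factor PAX8 stayed at or under 0.182 CPM. These are bulk samples, in which fewer cells of a kind and less RNA per cell cannot be told apart.

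EP300 transcripts marked the p300 part of the fusion. EP300 had 1165 and 1179 CPM in VPRP non-target cells, against 111 and 86.3 CPM in VPR cells, a log2 change of 3.57 ± 0.09 (SE; adjusted p = 4.24e-26). The groups did not overlap, and the level in VPR cells lay near the 110.4 and 103 CPM of WT cells. EP300 had 351 and 398 CPM in VPRP cells with the HBB guide, so its transcript level was higher with the non-targeting guide. The counts do not separate transcripts of the fusion from those of the cell's own EP300. VPRP non-target and VPRP sgHBB cells thus differ in EP300 level as well as in guide. EP300 had 1116 and 1132 CPM in p300 cells and 195 and 194 CPM in p300 D1399Y cells. CREBBP, the paralogue of EP300, had 120.0 and 123 CPM in VPRP non-target cells, against 128 and 118 CPM in VPR cells, and was not called (adjusted p = 0.878). RELA, whose protein p65 supplies a domain of VPR, had 106 and 119 CPM in VPRP non-target cells, against 102 and 92.6 CPM in VPR cells; its log2 change of 0.20 ± 0.08 (SE; adjusted p = 0.0258) did not hold without the count filter (adjusted p = 0.122), without VPR replicate 2 (0.261) or without VPRP non-target replicate 2 (0.39).

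HBB marked the guide. It had 0 CPM in both VPRP non-target libraries, against 65.8 and 95 CPM in VPR cells, which is at least 918-fold lower in VPRP non-target cells from a floor of 3 counts over their libraries. WT cells were also at 0, and VPRP with the HBB guide had 1732 and 1379 CPM. Because the guide differs along with p300, a difference at HBB or at any other site of that guide cannot be told apart from one due to p300 within these 4 libraries. For many genes the level in VPRP sgHBB cells, which share the guide with VPR cells, is therefore given as well.

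MAGEA10, an X-linked cancer-testis antigen, was present in both groups, as it was in WT, and nearly absent from the other groups. MAGEA10 had 32.1 and 32 CPM in VPRP non-target cells, against 24.9 and 27 CPM in VPR cells. WT cells had 9.34 and 9.57 CPM, and no library of either group was that low. The other groups had 0.261 and 0.166 CPM with VPRP sgHBB, 0 CPM in both libraries with p300 and 0 and 0.138 CPM with p300 D1399Y. Since the pair was chosen for this pattern, the levels of MAGEA10 are a description, with no test. TWIST2, a mesenchymal transcription factor, showed the reverse pattern, with 0.0607 and 0 CPM in VPRP non-target cells, against 0 CPM in both VPR libraries, and 4.11 and 2.93 CPM in VPRP sgHBB, 3.61 and 4.42 CPM in p300 and 4.22 and 4.43 CPM in p300 D1399Y cells.

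**Figure D1:**
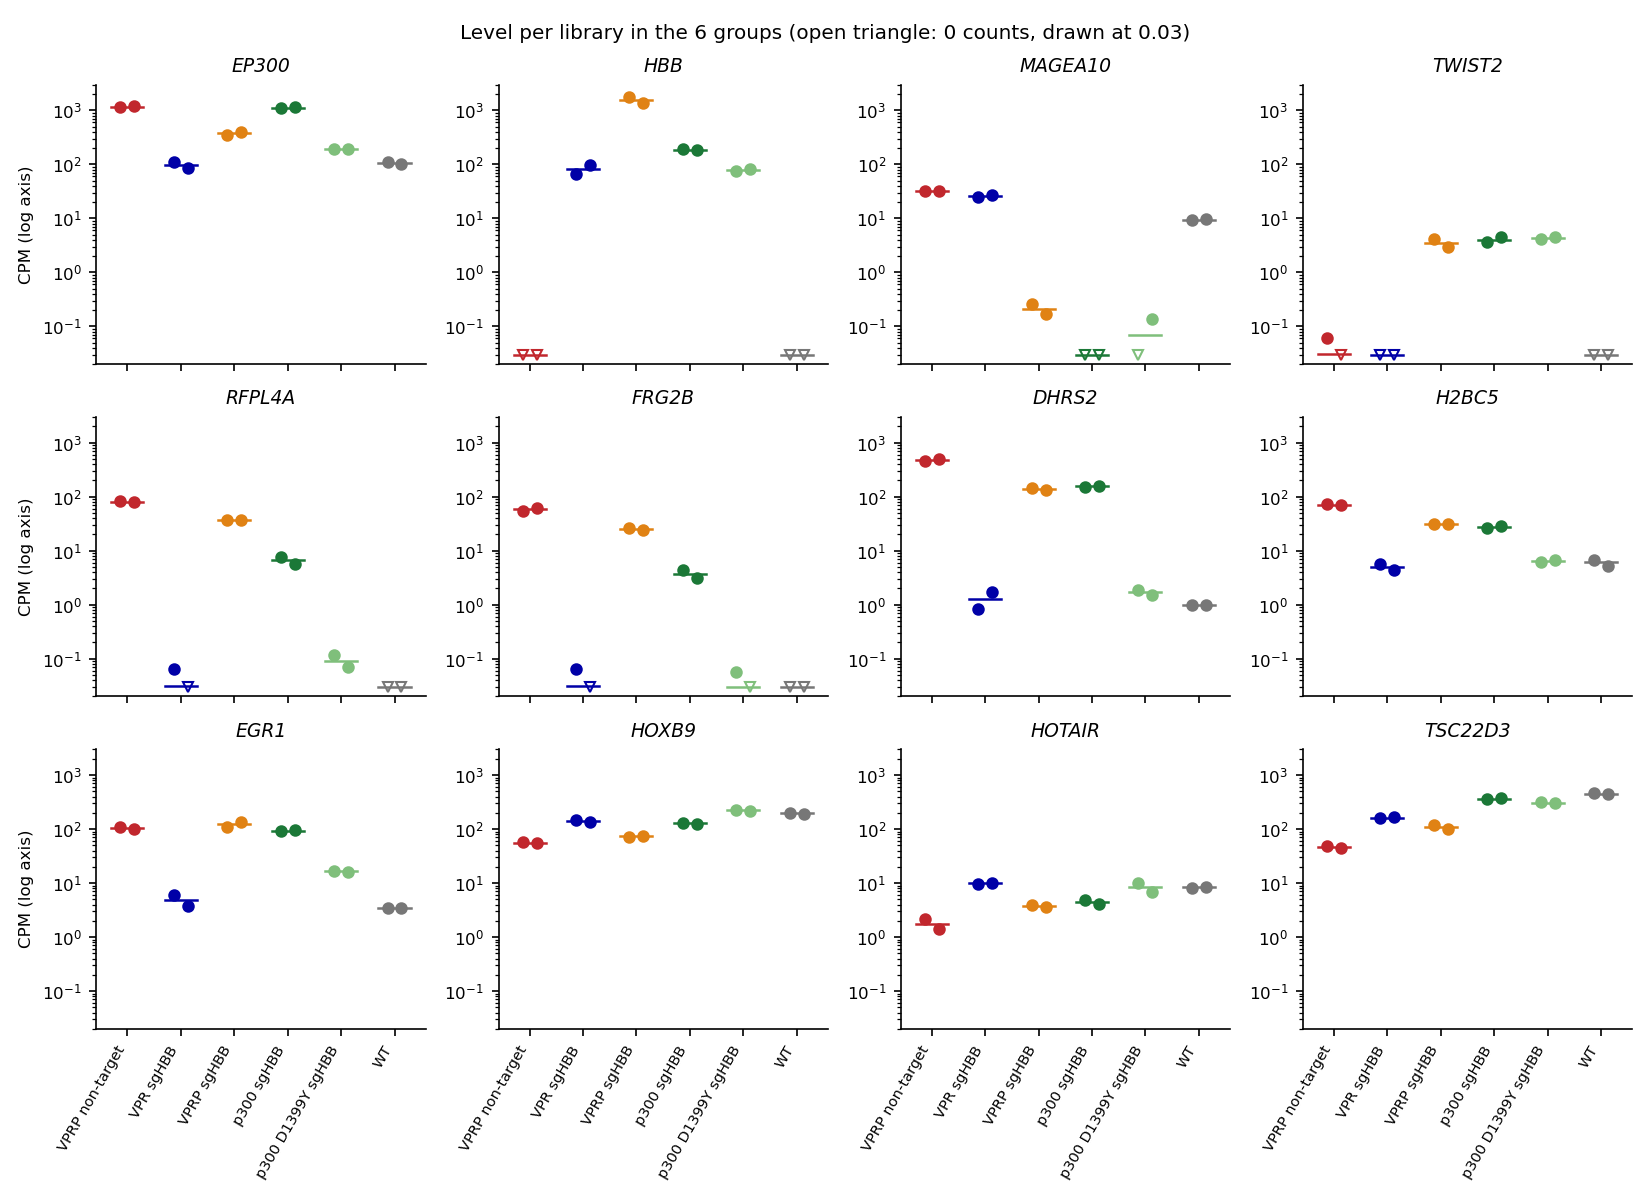
CPM (log axis) of 12 genes in each of the 12 libraries, with points for libraries, bars for group means and open triangles for 0 counts. EP300 and the raised genes RFPL4A, FRG2B, DHRS2, H2BC5 and EGR1 lie apart in VPRP non-target and VPR cells, MAGEA10 lies close together, and HBB is at 0 with the non-targeting guide.

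Genes that set p300 cells apart from WT were read in the same way. There were 49 genes at least 8-fold lower (adjusted p under 0.05) in both p300 and p300 D1399Y cells than in WT. MAGEA10 is one of them and the pair of groups was chosen for its level, so the values of this set are a description. Of these, 7 were higher and 6 lower in VPRP non-target than in VPR cells, against 27% higher and 28.2% lower among all genes tested, 0 differed by 8-fold, and the median log2 change was -0.12. Between VPRP sgHBB and VPR cells, where 24.7% of all genes were higher and 25.1% lower, 0 were higher and 46 lower, 33 of them by at least 8-fold, with a median of -3.69. Another 83 genes were at least 8-fold higher than WT in both p300 groups, among them HBB, the target of the guide. Of the 83, 23 were higher and 8 lower in VPRP non-target than in VPR cells with a median of 0.80, and 60 were higher and 0 lower in VPRP sgHBB than in VPR cells with a median of 2.16. At least 8-fold in either direction, 14 differed in the first comparison and 23 in the second. Both comparisons share the VPR libraries.

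**Figure D2:**
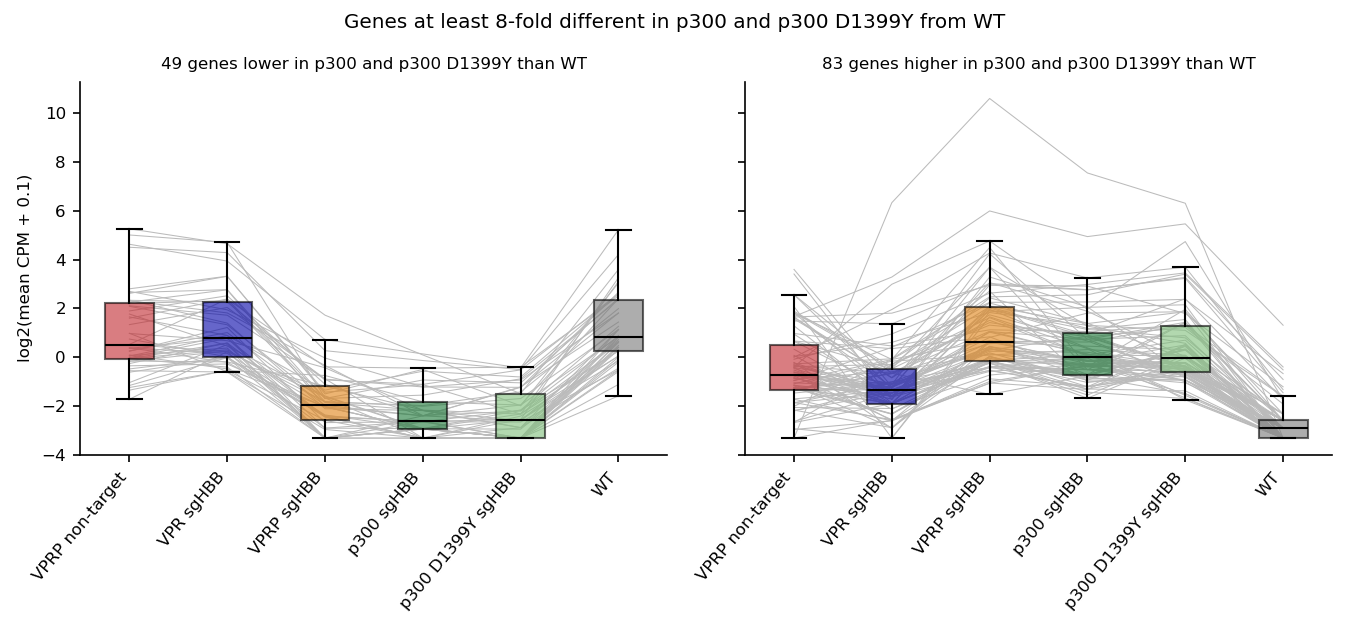
Mean level, as log2(CPM + 0.1), of the 49 genes at least 8-fold lower (left) and the 83 at least 8-fold higher (right) in both p300 groups than in WT. Grey lines are genes and boxes show medians and quartiles; on the left VPRP non-target, VPR and WT cells stand together, and the other 3 groups lie lower.

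Of all genes tested, 9225 (55.3%) were called, 4515 higher and 4710 lower in VPRP non-target cells, and 9988 had an unadjusted p under 0.05. The directions were nearly even in number and uneven in size. At least 2-fold, 2238 genes (13.4%) were higher and 560 (3.35%) lower. At least 8-fold the counts were 580 higher and 15 lower, and at least 32-fold 205 higher and 2 lower. Both VPRP non-target libraries lay above both VPR libraries for 37.7% of genes and below both for 38.4%, with no overlap. The median log2 change over all genes was -0.01.

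The large rises lay among genes of low level. In the lowest quintile by mean level over the 12 libraries, 34.7% of genes were at least 2-fold higher and 3.26% at least 2-fold lower. In the highest quintile each share was 0.9%, and 496 genes were called higher and 1752 lower with a median log2 change of -0.20. A gene that is silent in VPR cells could pass the count filter only through groups where it is expressed, so the shares in the lowest quintile carry no test. At least 2-fold rises took in 11.4% of the protein-coding genes tested, 25.3% of the lncRNAs and 21.96% of the pseudogenes, classes that also differ in level.

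**Figure D3:**
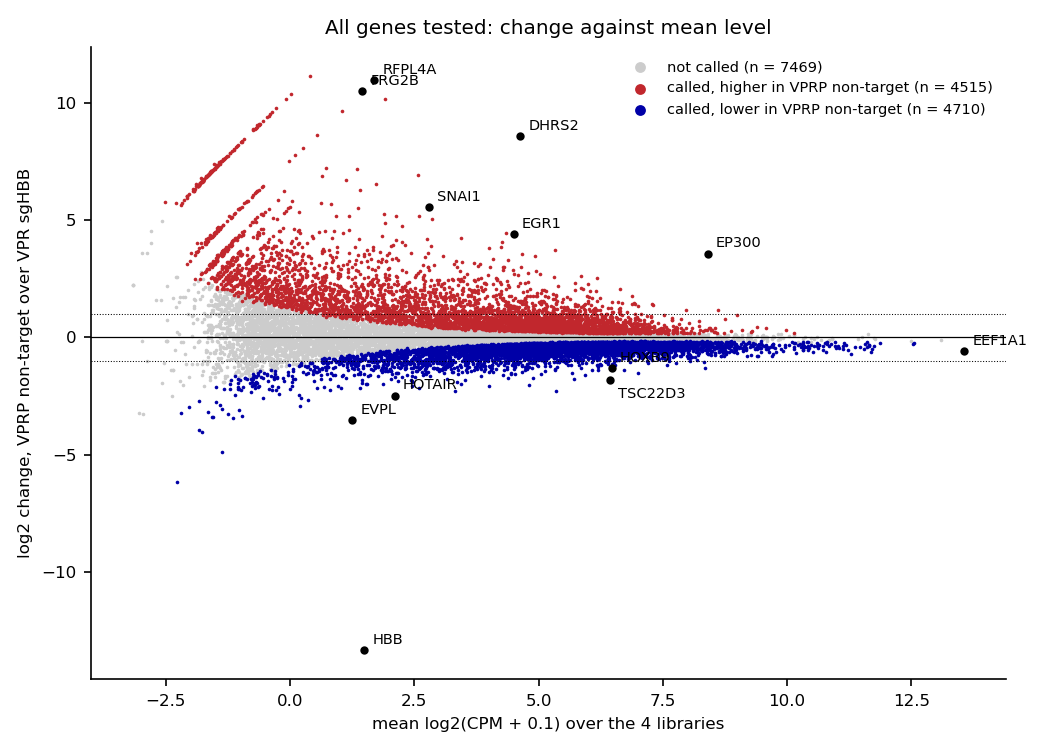
Log2 change of VPRP non-target over VPR cells against mean log2(CPM + 0.1) of the 4 libraries, 1 point a gene, with 4515 genes called higher in red, 4710 called lower in blue and dotted lines at 2-fold. Points far above the upper line gather at low levels, and the most abundant genes, such as EEF1A1, lie just under 0.

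Switching on from no reads was nearly one-way. With 0 counts in both VPR libraries and at least 1 CPM in both VPRP non-target libraries there were 57 genes, and 36 of them also had 0 counts in WT. The reverse held for 1 gene, HBB. Of the 57, 13 reached 1 CPM in both VPRP sgHBB libraries, 6 in both p300 libraries and 0 in both p300 D1399Y libraries. The 57 include FRG2, SLC34A2, DUXA and GOLGA8M, described with their families. RRAD, a small GTPase that restrains calcium channels, had 4.62 and 6.7 CPM in VPRP non-target cells, against 0 CPM in both VPR libraries, a level at least 57.9-fold higher; it was chosen after its values were seen.

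The promoters of 5 genes that rose steeply were read from RefSeq sequence of GRCh38.p14, 250 bases up to the transcript start, on the gene's strand. RFPL4A, FRG2B, FRG2C and DHRS2 were among the 15 largest rises and H2BC5 among the histone genes that rose most. Capitals mark TATAAA, the letters of a TATA box, and CCAAT, on either strand (TTTATA and ATTGG on the other), which do not overlap. All 5 hold TATAAA, so they do not represent the 15 largest rises. MIR7-3HG, ACSBG1, CRISPLD2, RASD1, SCIRT, SOCS1, NEDD9 and KDR had an entry without TATAAA and are not shown. RFPL4A lies at chr19:55758847-55759096 on the plus strand, FRG2B at chr10:133626796-133627045 on the minus strand, FRG2C at chr3:75664078-75664327 on the plus strand, DHRS2 at chr14:23629865-23630114 on the plus strand and H2BC5 at chr6:26157871-26158120 on the plus strand.
RFPL4A: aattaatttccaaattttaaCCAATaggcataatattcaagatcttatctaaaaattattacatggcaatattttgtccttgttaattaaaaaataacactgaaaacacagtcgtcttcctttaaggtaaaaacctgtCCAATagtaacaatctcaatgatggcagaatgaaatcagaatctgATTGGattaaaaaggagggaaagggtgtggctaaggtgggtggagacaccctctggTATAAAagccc
FRG2B: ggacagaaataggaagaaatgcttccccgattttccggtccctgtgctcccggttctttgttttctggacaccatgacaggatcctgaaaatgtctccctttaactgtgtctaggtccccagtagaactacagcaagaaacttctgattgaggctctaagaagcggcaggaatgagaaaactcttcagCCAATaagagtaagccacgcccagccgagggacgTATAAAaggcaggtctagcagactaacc
FRG2C: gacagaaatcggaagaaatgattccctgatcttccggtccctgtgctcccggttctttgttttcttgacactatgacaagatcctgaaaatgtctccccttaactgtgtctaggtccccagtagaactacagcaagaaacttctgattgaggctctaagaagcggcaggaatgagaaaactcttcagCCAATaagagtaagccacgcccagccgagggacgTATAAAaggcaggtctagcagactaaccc
DHRS2: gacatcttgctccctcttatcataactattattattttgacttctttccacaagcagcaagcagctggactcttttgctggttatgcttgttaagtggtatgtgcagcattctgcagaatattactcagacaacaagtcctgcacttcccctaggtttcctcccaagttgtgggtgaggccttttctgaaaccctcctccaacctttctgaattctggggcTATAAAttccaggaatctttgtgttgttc
H2BC5: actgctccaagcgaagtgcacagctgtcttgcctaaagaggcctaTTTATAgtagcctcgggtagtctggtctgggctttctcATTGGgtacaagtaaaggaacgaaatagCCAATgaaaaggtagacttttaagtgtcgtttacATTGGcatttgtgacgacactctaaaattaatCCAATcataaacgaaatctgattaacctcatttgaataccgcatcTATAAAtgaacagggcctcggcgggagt

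TATAAA began 11 bases before the start in RFPL4A, 28 in FRG2B and H2BC5, and 29 in FRG2C and DHRS2. FRG2B and FRG2C were 96.0% identical over the 250 bases, and RFPL4A and FRG2B 47.0%. Of the 15 largest rises 13 had an entry, of which 5 held TATAAA and 6 CCAAT, on either strand. Among 27303 promoters of this length in the table, 11.1% held TATAAA and 33.0% CCAAT. A match is a description of these letters and does not show a site in use. For the 15 largest falls and for all rises of at least 2-fold under 80% had an entry (46.7% and 70.2%), so the check is void for them.

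Many tested genes of the cleavage-stage embryo and of recently duplicated primate families were higher. Low members could pass the filter only through groups where they are on, so counts and medians over the tested members do not measure these lists as a whole. DUX4 and related factors switch the cleavage-stage genes on in the early embryo, and several are silent in somatic cells. Of 10 tested cleavage-stage genes 9 were higher and 0 lower, each of the 9 by at least 2-fold, with a median log2 change of 4.81 against -0.01 over all genes, of which 27% were higher; 16 of the 26 members found in the table did not pass the filter. RFPL4A, a RING-finger gene of oocytes and early embryos, had 81.6 and 80.8 CPM in VPRP non-target cells, against 0.0633 and 0 CPM in VPR cells. With 1 count in VPR cells, the ratio is 2468 (exact 95% interval 443 to 97534). VPRP sgHBB cells had 37.6 and 36.5 CPM, p300 cells 7.65 and 5.71 CPM and p300 D1399Y cells 0.116 and 0.0692 CPM. RFPL4A has a close copy, RFPL4AL1, with a promoter window 83.0% identical, so the split of reads between them is uncertain. The order of the groups was thus VPRP non-target, VPRP sgHBB, p300, then p300 D1399Y and VPR close to 0.

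DUXA, a homeobox gene related to DUX4, had 1.7 and 1.5 CPM in VPRP non-target cells, against 0 CPM in both VPR libraries, at least 16.2-fold higher. SLC34A2, a phosphate transporter, had 4.49 and 3.71 CPM in VPRP non-target cells, against 0 CPM in both VPR libraries, at least 41.4-fold higher. HSPA1L was the tested member not called, at 1.52 and 1.11 CPM in VPRP non-target cells, against 2.15 and 1.23 CPM in VPR cells.

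Of 22 genes of duplicated primate families that passed the filter, out of 25 found in the table, 15 were higher and 1 lower. At least 2-fold 14 were higher, and the median was 3.39, where 27% of all genes were higher and 28.2% lower. Near-identical copies share reads, and how these were assigned is not given in the sources used here, so the split between copies is uncertain. FRG2C, from the FRG2 family near the facioscapulohumeral dystrophy region, had 83.7 and 84.8 CPM in VPRP non-target cells, against 0.0633 and 0.0684 CPM in VPR cells. FRG2B had 54.5 and 62.1 CPM in VPRP non-target cells, against 0.0633 and 0 CPM in VPR cells. FRG2 had 18.5 and 16.7 CPM in VPRP non-target cells, against 0 CPM in both VPR libraries, at least 178-fold higher. The FRG2 copies had 0 to 2 counts in VPR and WT cells, and FRG2B stood at 26.5 and 24 CPM in VPRP sgHBB and 4.41 and 3.12 CPM in p300 cells. GOLGA8M, a golgin copy, had 4.49 and 3.93 CPM in VPRP non-target cells, against 0 CPM in both VPR libraries. NBPF3 and FRG1, which are expressed without the fusion, were not called, with log2 changes of -0.03 and -0.03.

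Of 11 tested cancer-testis antigens, out of 29 found in the table, germline genes that are usually silent in somatic cells, 9 were higher and 1 lower, with a median of 1.72, against 27% higher and 28.2% lower among all genes. In VPRP sgHBB over VPR cells, which share the VPR libraries, 4 were higher and 5 lower, with a median of 0.07, against 24.7% and 25.1% of all genes. MAGEA10, for which the pair was chosen, is among the 9 called higher in VPRP non-target cells. Low members could also pass the filter only through groups where they are on, so these counts are a description. SSX1 had 1.94 and 2.44 CPM in VPRP non-target cells, against 0 and 0.0684 CPM in VPR cells, a ratio of 67 over 1 count (exact 95% interval 11.7 to 2679). MAGEB6 had 4.07 and 5.49 CPM in VPRP non-target cells, against 0.0633 and 0.137 CPM in VPR cells. It had 4.83 and 4.47 CPM in VPRP sgHBB cells, where SSX1 had 0.718 and 0.939 CPM and MAGEA11 0.326 and 0.221 CPM. MAGEA11 had 1.58 and 0.72 CPM in VPRP non-target cells, against 0.127 and 0.0684 CPM in VPR cells. MAGEB2 was not called, at 46.9 and 45.8 CPM in VPRP non-target cells, against 42.7 and 42.6 CPM in VPR cells. The MAGEA copies are close in sequence and share the uncertainty of other copies.

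Among single genes outside the lists, DHRS2, a dehydrogenase/reductase first known from cells treated with deacetylase inhibitors, combined a high level with a large rise. DHRS2 had 461 and 494 CPM in VPRP non-target cells, against 0.823 and 1.71 CPM in VPR cells, a log2 change of 8.57 ± 0.14 (SE; adjusted p = 1.81e-32). Its VPR libraries lay beside the 1.01 and 0.97 CPM of WT cells. DHRS2 had 147 and 135 CPM in VPRP sgHBB, 150.3 and 161 CPM in p300 and 1.85 and 1.52 CPM in p300 D1399Y cells. The gene was thus high in each group with an active p300 and close to its WT level in the others. EP300 transcript was also lower in p300 D1399Y cells, with a mean of 195 CPM, against 1124 CPM in p300 cells. Activity and amount of p300 cannot be told apart there.

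MIR7-3HG, a microRNA host transcript, had 32.2 and 32.6 CPM in VPRP non-target cells, against 0 and 0.0684 CPM in VPR cells, a ratio of 985 over 1 count (exact 95% interval 176 to 38937). It had 16.3 and 15.7 CPM in p300 cells and 0 CPM in both p300 D1399Y libraries. CRISPLD2, a secreted protein gene, had 60.4 and 60.3 CPM in VPRP non-target cells, against 0.507 and 0.479 CPM in VPR cells. It had 57 and 59.8 CPM in VPRP sgHBB cells, close to the level with the non-targeting guide. ACSBG1, an acyl-CoA synthetase, had 24.6 and 25.3 CPM in VPRP non-target cells, against 0.19 and 0.137 CPM in VPR cells. Each of the genes just named was under 1 CPM in VPR cells. RASD1, a small GTPase induced by glucocorticoids, had 28.2 and 28.1 CPM in VPRP non-target cells, against 0.317 and 0.274 CPM in VPR cells. SNAI1, a zinc-finger repressor of E-cadherin, had 44.6 and 46.2 CPM in VPRP non-target cells, against 0.823 and 1.09 CPM in VPR cells, a log2 change of 5.56 ± 0.20 (SE; adjusted p = 7.45e-22).

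NEDD9, a focal-adhesion scaffold, had 39.7 and 40.9 CPM in VPRP non-target cells, against 0.95 and 1.51 CPM in VPR cells. SOCS1, an inhibitor of cytokine signalling, had 10.3 and 13.6 CPM in VPRP non-target cells, against 0.317 and 0.342 CPM in VPR cells. Also among the 15 largest rises were PCDH8, SCIRT, VWA5A and KDR, with log2 changes of 5.27, 5.17, 5.16 and 4.73. All 15 were also called higher in VPRP sgHBB over VPR cells, which share the VPR libraries, and in p300 over p300 D1399Y cells, which share none. In that second comparison their log2 changes ran from 1.82 to 11.02. Among all genes tested 24.7% were higher in VPRP sgHBB over VPR cells and 15.4% in p300 over p300 D1399Y cells. The 15 were chosen by their change over the same VPR libraries, so these counts are a description.

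KDR, a receptor for vascular endothelial growth factor, had 23.2 and 24.4 CPM in VPRP non-target cells, against 1.08 and 0.684 CPM in VPR cells. It had 7.96 and 10.2 CPM in p300 cells, against 0.231 and 0.553 CPM in p300 D1399Y cells. Of 13 tested blood and endothelial markers 7 were higher and 2 lower, against 27% higher and 28.2% lower among all genes. Their summed level over 19 matched genes was 56.7 to 61.5 CPM in VPRP non-target cells, against 25.9 to 30.5 CPM in VPR cells. KDR was a large part of it, and the part of these markers in other results was not tested. MS4A1 and CD68 were at 0 counts in all 4 libraries, and PTPRC, the common leukocyte marker, was at or under 0.243 CPM. CD14, a monocyte marker, had 1.64 and 1.77 CPM in VPRP non-target cells, against 0.253 and 0.205 CPM in VPR cells. MPO, an enzyme of neutrophil granules, had 4.25 and 2.33 CPM in VPRP non-target cells, against 5.38 and 4.79 CPM in VPR cells, and was not called.

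Most histone genes rose. Of 21 tested replication-dependent histone genes, out of 22 found in the table, 17 were higher and 0 lower, 15 by at least 2-fold, with a median log2 change of 2.49, against 27% of all genes higher and 13.4% by at least 2-fold. Transcripts of these genes normally end in a stem-loop without a poly(A) tail, and the libraries were poly-A selected, so the values cover the polyadenylated part; several copies are near-identical. H2BC5 had 74.3 and 69 CPM in VPRP non-target cells, against 5.7 and 4.31 CPM in VPR cells, a log2 change of 3.83 ± 0.13 (SE; adjusted p = 2.12e-22). H4C3 had 16.9 and 15.1 CPM in VPRP non-target cells, against 1.33 and 0.753 CPM in VPR cells. H3C4 had 3.16 and 2.99 CPM in VPRP non-target cells, against 0.253 and 0.205 CPM in VPR cells. H1-2, a linker histone named after its values were seen, had 176 and 173 CPM in VPRP non-target cells, against 29.4 and 31.1 CPM in VPR cells. VPRP non-target lay above VPR cells without overlap for each of these named genes, as for 37.7% of all genes. H2BC4 was not called, at 3.34 and 2.38 CPM in VPRP non-target cells, against 1.39 and 1.71 CPM in VPR cells. H2AC20 was not called either, at 2.07 and 2.44 CPM in VPRP non-target cells, against 1.2 and 2.33 CPM in VPR cells. In p300 over p300 D1399Y cells 11 of the 21 were higher and 0 lower, where 15.4% of all genes were higher.

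DNA replication and division genes were lower by smaller steps. Of 21 tested S phase genes 0 were higher and 18 lower, none by 2-fold, with a median of -0.56, and of 22 G2 and mitosis genes 2 were higher and 15 lower, with a median of -0.31, against 27% higher and 28.2% lower among all genes. MCM3, a subunit of the replicative helicase, had 207 and 199 CPM in VPRP non-target cells, against 366 and 362 CPM in VPR cells, a log2 change of -0.84 ± 0.07 (SE; adjusted p = 1.73e-12). MCM7, another subunit, had 444 and 448 CPM in VPRP non-target cells, against 779 and 752 CPM in VPR cells, and TOP2A, the topoisomerase of dividing cells, 186 and 191 CPM in VPRP non-target cells, against 336 and 359 CPM in VPR cells. SLBP, which binds the histone stem-loop, was not called, at 121 and 123 CPM in VPRP non-target cells, against 123 and 139 CPM in VPR cells. The share of cells in each phase was not measured.

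**Figure D4:**
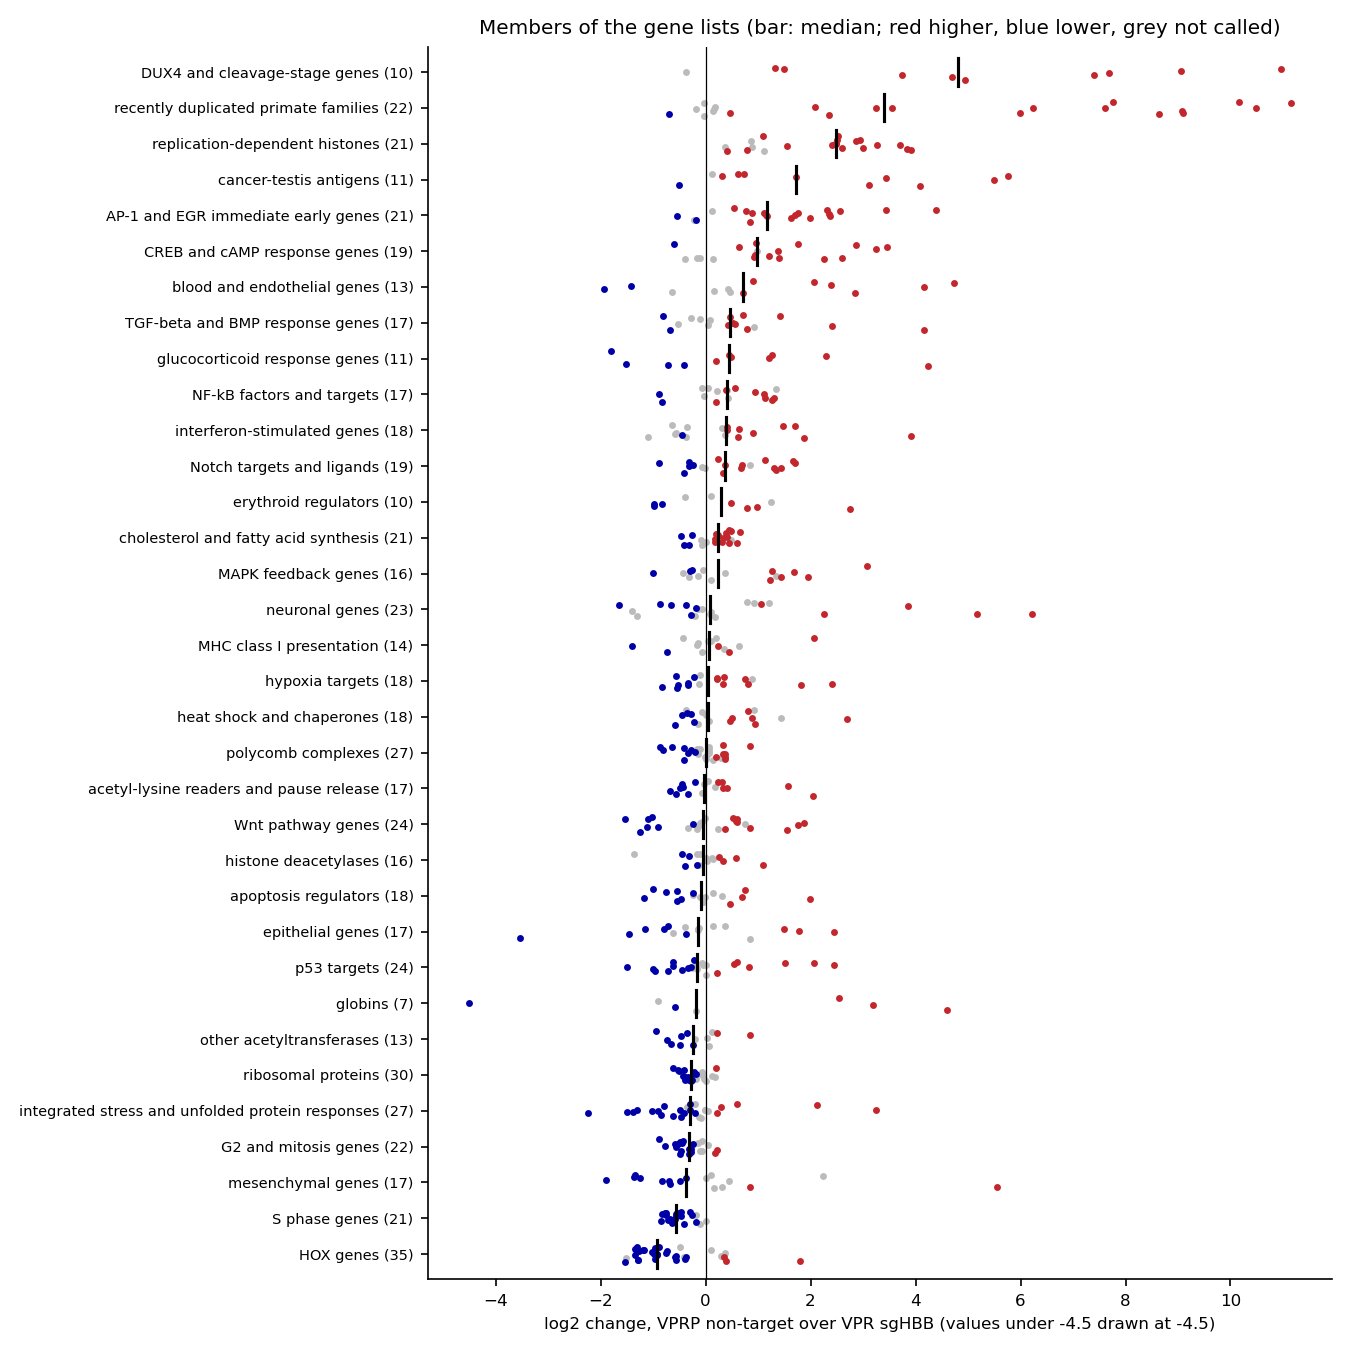
Log2 change of VPRP non-target over VPR cells for the tested members of 34 gene lists, ordered by their median (black bar), with the number tested in brackets; red points were called higher, blue lower and grey not called. Cleavage-stage genes, primate families and replication-dependent histones lie highest, and HOX and S phase genes lowest.

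Immediate early genes, which growth factors and stress switch on within minutes, were mostly higher. Of 21 tested AP-1 and EGR genes 17 were higher and 2 lower, 13 by at least 2-fold, with a median of 1.17, against 27% of all genes higher, 28.2% lower and 13.4% at least 2-fold higher. EGR1, a zinc-finger factor, had 111 and 98.3 CPM in VPRP non-target cells, against 6.14 and 3.76 CPM in VPR cells, a log2 change of 4.39 ± 0.13 (SE; adjusted p = 6.18e-24). FOS, an AP-1 subunit, had 21.6 and 20.6 CPM in VPRP non-target cells, against 2.03 and 1.85 CPM in VPR cells. JUN, its partner, had 572 and 557 CPM in VPRP non-target cells, against 352 and 313 CPM in VPR cells; its WT level of 642 and 636 CPM was higher still, so VPR cells stood below WT. EGR1 had 3.43 and 3.43 CPM in WT cells. KLF6 and MAFF were not called, with log2 changes of -0.21 and 0.11. Of 19 tested CREB and cAMP response genes 13 were higher and 1 lower, with a median of 0.97. VGF, a neuropeptide precursor, had 27.1 and 28.1 CPM in VPRP non-target cells, against 2.66 and 2.33 CPM in VPR cells, and NPTX2, a neuronal pentraxin, 140.2 and 143 CPM in VPRP non-target cells, against 22.1 and 24.7 CPM in VPR cells. CREB1 itself, at 37.6 and 39.5 CPM in VPRP non-target cells, against 41.8 and 41.1 CPM in VPR cells, was not called.

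Other signalling lists were called more often higher than lower, where 27% of all genes were higher and 28.2% lower. Of 16 tested MAPK feedback genes 6 were higher and 3 lower. Of 17 NF-kB genes 8 were higher and 2 lower, among them RELB with 9.84 and 11.6 CPM in VPRP non-target cells, against 4.5 and 5.34 CPM in VPR cells. Of 17 TGF-beta and BMP genes 9 were higher and 2 lower, led by CCN2, a matricellular protein, with 18.3 and 17.2 CPM in VPRP non-target cells, against 0.887 and 1.09 CPM in VPR cells. Of 18 interferon-stimulated genes 9 were higher and 1 lower, led by OASL with 0.911 and 1.27 CPM in VPRP non-target cells, against 0.0633 and 0.0684 CPM in VPR cells. Of 19 Notch genes 11 were higher and 5 lower, among them the ligand gene JAG1 with 16.6 and 17.8 CPM in VPRP non-target cells, against 5.89 and 4.58 CPM in VPR cells. In either direction 9 of the MAPK, 10 of the NF-kB and 10 of the interferon genes were called, shares near the 55.3% of all genes. Medians of these 5 lists ran from 0.24 to 0.47. In VPRP sgHBB over VPR cells, 24.7% of all genes were higher and 25.1% lower. There 5 MAPK genes were higher and 7 lower, and 7 Notch genes higher and 7 lower. For TGF-beta and BMP genes the counts were 5 and 5, for NF-kB genes 5 and 3, and for interferon genes 9 and 0. In p300 over p300 D1399Y cells the MAPK and Notch medians were -0.12 and -0.16. The medians of the other lists ran from 0.20 to 0.37 there.

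All 11 tested glucocorticoid response genes were called, 7 higher and 4 lower, with a median of 0.44. For all genes tested the shares were 55.3% called, 27% higher and 28.2% lower. SGK1, a kinase of ion transport, had 46.5 and 45.5 CPM in VPRP non-target cells, against 2.34 and 2.53 CPM in VPR cells, a log2 change of 4.24 ± 0.16 (SE; adjusted p = 2.54e-21). ERRFI1, an inhibitor of the EGF receptor, had 137 and 145 CPM in VPRP non-target cells, against 28.3 and 29.3 CPM in VPR cells. TSC22D3, the glucocorticoid-induced leucine zipper, was lower, with 49 and 43.8 CPM in VPRP non-target cells, against 157 and 167 CPM in VPR cells, a log2 change of -1.80 ± 0.08 (SE; adjusted p = 1.54e-19). It was highest in WT at 460.0 and 448 CPM and had 117 and 102 CPM in VPRP sgHBB, 356 and 369.7 CPM in p300 and 311 and 309 CPM in p300 D1399Y cells. The change of TSC22D3 in p300 over p300 D1399Y cells was 0.23, and the difference between the changes was -2.03 ± 0.11 (SE; adjusted p = 4.00e-16).

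Genes of the integrated stress response and of the unfolded protein response were more often lower than higher. Of 27 tested genes 5 were higher and 15 lower, with a median of -0.30, against 27% higher and 28.2% lower among all genes. In p300 over p300 D1399Y cells 11 were higher and 2 lower, against 15.4% and 15.0% of all genes. DDIT3, the stress factor CHOP, had 11.4 and 11.1 CPM in VPRP non-target cells, against 1.08 and 1.3 CPM in VPR cells, a log2 change of 3.24 ± 0.25 (SE; adjusted p = 3.45e-13). PPP1R15A, a phosphatase subunit that ends the response, had 126 and 117 CPM in VPRP non-target cells, against 24.8 and 30.9 CPM in VPR cells. SLC7A11, a cystine transporter, fell with 7.35 and 11.9 CPM in VPRP non-target cells, against 26.5 and 28.1 CPM in VPR cells, and ATF4, the factor common to both responses, was not called at 987 and 949.7 CPM in VPRP non-target cells, against 933 and 1029 CPM in VPR cells. Of 24 tested p53 targets 7 were higher and 10 lower, with a median of -0.17, against 27% higher and 28.2% lower among all genes. In VPRP sgHBB over VPR cells 13 were higher and 4 lower (median 0.31), against 24.7% and 25.1% of all genes. In p300 over p300 D1399Y cells 2 were higher and 18 lower (median -0.42), against 15.4% and 15.0%. PLK3, a stress kinase, had 19.2 and 17.7 CPM in VPRP non-target cells, against 3.17 and 3.63 CPM in VPR cells; SPATA18, a mitochondrial quality gene, had 7.11 and 6.93 CPM in VPRP non-target cells, against 21.3 and 18.1 CPM in VPR cells. Heat shock genes, 6 higher and 5 lower of 18, and hypoxia targets, 8 higher and 7 lower of 18, showed no common direction; HSPA2, a testis chaperone, had 55 and 60.6 CPM in VPRP non-target cells, against 10.4 and 7.32 CPM in VPR cells.

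HOX genes, the homeobox genes that set position along the body axis, were mostly lower. Of 35 tested, out of 39, 3 were higher and 25 lower, 11 by at least 2-fold, with a median log2 change of -0.92, against 27% of all genes higher, 28.2% lower and 3.35% at least 2-fold lower. HOXC4 had 14.8 and 12.3 CPM in VPRP non-target cells, against 38.3 and 40.6 CPM in VPR cells, a log2 change of -1.54 ± 0.12 (SE; adjusted p = 5.91e-13). HOXA6 had 2.73 and 2.22 CPM in VPRP non-target cells, against 6.21 and 6.36 CPM in VPR cells, and HOXB9, named after its values were seen, had 56.7 and 56.1 CPM in VPRP non-target cells, against 145 and 134 CPM in VPR cells. HOXD1 was higher, with 7.77 and 5.26 CPM in VPRP non-target cells, against 2.22 and 1.51 CPM in VPR cells. HOXD8 and HOXC13 were not called, with log2 changes of 0.30 and 0.10. In p300 over p300 D1399Y cells 0 were higher and 30 lower, with a median of -0.84, against 15.0% of all genes lower. HOTAIR, a long non-coding RNA of the HOXC cluster, had 2.13 and 1.44 CPM in VPRP non-target cells, against 9.63 and 10.2 CPM in VPR cells, a log2 change of -2.48 ± 0.24 (SE; adjusted p = 9.46e-11), and 3.98 and 3.54 CPM in VPRP sgHBB cells. Of 27 tested polycomb genes, whose complexes keep HOX genes silent, 7 were higher and 8 lower, none by 2-fold.

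Several of the 15 largest falls had further levels to compare. IGFBP5, a secreted binding protein of insulin-like growth factors, had 18 and 18.6 CPM in VPRP non-target cells, against 92.4 and 86.5 CPM in VPR cells, a log2 change of -2.29 ± 0.09 (SE; adjusted p = 4.60e-21). COL2A1, the cartilage collagen, had 13.4 and 14.2 CPM in VPRP non-target cells, against 60.6 and 51.3 CPM in VPR cells. It had 74.3 and 71.3 CPM in VPRP sgHBB cells, above both of these groups. LAMA4, a laminin chain, had 5.53 and 5.32 CPM in VPRP non-target cells, against 22.7 and 19.98 CPM in VPR cells. SLC6A9, a glycine transporter, had 7.84 and 7.65 CPM in VPRP non-target cells, against 32.5 and 32.6 CPM in VPR cells. It had 6.65 and 8.62 CPM in VPRP sgHBB cells, so its level was low with either guide. Of 17 tested mesenchymal genes 2 were higher and 9 lower, against 27% higher and 28.2% lower among all genes.

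For some falls levels ran higher in each group with the HBB guide than in the other groups. EVPL, a plakin of the cornified envelope, had 0.425 and 0.886 CPM in VPRP non-target cells, against 8.87 and 6.77 CPM in VPR cells, a log2 change of -3.54 ± 0.28 (SE; adjusted p = 6.66e-13). It had 24.5 and 29.5 CPM in VPRP sgHBB, 4.16 and 3.42 CPM in p300, 27.3 and 25.8 CPM in p300 D1399Y and 0.202 and 0.194 CPM in WT cells. TMEM37, a membrane protein gene, had 4.37 and 4.49 CPM in VPRP non-target cells, against 19.9 and 23.5 CPM in VPR cells. It had 54.1 and 46.4 CPM in VPRP sgHBB, 11.1 and 10.2 CPM in p300, 33.5 and 30.8 CPM in p300 D1399Y and 2.49 and 2.39 CPM in WT cells. Both genes thus lay above WT in each group with the HBB guide. VPRP non-target cells were also above WT, by 1.71 ± 0.61 (SE; adjusted p = 0.016) for EVPL and 0.86 ± 0.21 (SE; adjusted p = 7.61e-04) for TMEM37 on the log2 scale. Both were higher in VPRP sgHBB than in VPR cells (EVPL 1.78, TMEM37 1.21). The part of the guide in these levels was not tested. FLI1, an ETS factor, had 1.34 and 1.33 CPM in VPRP non-target cells, against 4.94 and 5.27 CPM in VPR cells, and was under 0.5 CPM in VPRP sgHBB, p300 and p300 D1399Y cells. Of the 15 largest falls 10 were also lower in VPRP sgHBB over VPR cells, 1 was not called there, and HBB, EVPL, TMEM37 and COL2A1 were higher. In p300 over p300 D1399Y cells, which share no library with this pair, 8 of the 15 were lower, 6 not called and 1, HBB, higher. Among all genes tested 25.1% were lower in VPRP sgHBB over VPR cells and 15.0% in p300 over p300 D1399Y cells.

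Genes of the translation machinery were lower by small steps. EEF1A1, an elongation factor and one of the most abundant transcripts, had 9771 and 9973 CPM in VPRP non-target cells, against 13834 and 15720.0 CPM in VPR cells, a log2 change of -0.58 ± 0.08 (SE; adjusted p = 8.45e-08). Of 30 tested ribosomal protein genes 1 was higher and 20 lower, with a median of -0.27, against 27% higher and 28.2% lower among all genes. In the highest quintile by mean level 1752 of 3339 genes were lower, with a median of -0.20. RPL3 had 2781 and 2792 CPM in VPRP non-target cells, against 3803 and 4140.1 CPM in VPR cells. RPS6 had 2725 and 2634 CPM in VPRP non-target cells, against 3543 and 4714 CPM in VPR cells, with the VPR libraries far apart. All ribosomal protein genes took 11.8% and 11.4% of the counts in VPRP non-target libraries, against 12.0% and 13.5% in VPR libraries. Without VPR replicate 2, 15 of the 30 were lower and 1 higher. Mitochondrially encoded genes took 2.85% and 2.86% of the counts in VPRP non-target libraries, against 3.41% and 2.14% in VPR libraries, and the part of these shares in the result was not tested.

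Genes of the acetylation and transcription machinery changed singly. HEXIM1, which holds the elongation kinase P-TEFb inactive, had 205 and 199 CPM in VPRP non-target cells, against 52 and 45.2 CPM in VPR cells, a log2 change of 2.05 ± 0.08 (SE; adjusted p = 2.25e-20). It had 127 and 125 CPM in VPRP sgHBB cells but 50.6 and 48 CPM in p300 and 56.9 and 64 CPM in p300 D1399Y cells, where its change was -0.29. POLR2A, the largest subunit of RNA polymerase II, had 706 and 722 CPM in VPRP non-target cells, against 434 and 311 CPM in VPR cells. Of 13 other acetyltransferases 2 were higher and 7 lower, among them KAT6B with 16 and 16.3 CPM in VPRP non-target cells, against 32 and 30.4 CPM in VPR cells, and of 16 deacetylases 4 were higher and 4 lower, led by HDAC11 with 31.6 and 32.6 CPM in VPRP non-target cells, against 16.2 and 13.8 CPM in VPR cells. Of 17 tested reader and pause-release genes 6 were higher and 7 lower. For all genes tested the shares were 27% higher and 28.2% lower.

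Among the globins only HBB is the guide's target. HBE1, the embryonic beta-like globin, had 2.55 and 2.6 CPM in VPRP non-target cells, against 0 and 0.205 CPM in VPR cells, a ratio of 26.1 over 3 counts (exact 95% interval 8.66 to 129). HBE1 had 2.88 and 2.24 CPM in p300 cells, against 0 and 0.0692 CPM in p300 D1399Y cells. The alpha-globin copies HBA1 (0.729 and 0.61 CPM in VPRP non-target cells, against 0 and 0.137 CPM in VPR cells) and HBA2 (0.607 and 0.997 CPM in VPRP non-target cells, against 0.127 and 0.137 CPM in VPR cells) were low. Of the 7 tested globins 3 were higher and 2 lower, but only 1 was higher with DESeq2, with a stricter filter or without VPR replicate 1. Of 10 erythroid regulators 4 were higher and 3 lower. For all genes tested the shares were 27% higher and 28.2% lower.

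Other lists were read as well, where 27% of all genes tested were higher and 28.2% lower. Of 23 tested neuronal genes 5 were higher and 6 lower, of 17 epithelial genes 3 and 6, of 24 Wnt genes 9 and 7, of 14 MHC class I genes 3 and 2, of 18 apoptosis regulators 4 and 7. TUBB3, a neuronal tubulin, had 3.71 and 3.16 CPM in VPRP non-target cells, against 0.127 and 0.342 CPM in VPR cells. Of 21 cholesterol and fatty acid synthesis genes 13 were higher and 4 lower, none by 2-fold, with a median of 0.25.

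The comparison of p300 with p300 D1399Y shares no library with that of VPRP non-target and VPR cells, and both its groups carry the HBB guide. Its groups also differ in EP300 transcript, with means of 1124 CPM in p300 and 195 CPM in p300 D1399Y cells. The log2 change of EP300 was 2.53 ± 0.09 (SE), so catalytic activity and amount of p300 cannot be told apart in it. That comparison called 5076 genes (30.4%), 2575 higher and 2501 lower. Of the 2238 genes at least 2-fold higher in VPRP non-target cells, 903 (40.4%) were also higher in p300 cells and 20 (0.89%) lower, against 15.4% and 15.0% of all genes tested. Of the 560 at least 2-fold lower, 225 (40.2%) were also lower and 10 (1.79%) higher. The genes at least 2-fold higher in both numbered 566, which is 77.0% of the 735 (4.4% of genes tested) that were so in p300 over p300 D1399Y cells and 25.3% of the 2238. Across the 16694 genes the log2 changes had a Pearson r of 0.596 and a Spearman rho of 0.472, given as a description, since genes are not independent replicates and low counts widen both changes.

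The changes of both kinds also differed in size. The difference of the changes was itself called for 4790 genes (28.7%), for 877 (39.2%) of the 2238 rises and for 313 (55.9%) of the 560 falls. These genes were chosen by the change of VPRP non-target over VPR cells, which is a term of the difference, so the counts are a description. Of the 15 largest rises it was called for 9, and not for FRG2B, FRG2C, MIR7-3HG, SCIRT, VWA5A and KDR. RASD1 had a difference of 4.68 ± 0.67 (SE; adjusted p = 2.82e-06) and SNAI1 of 3.48 ± 0.39 (SE; adjusted p = 3.68e-08). EGR1 changed by 4.39 and 2.51 in these comparisons, a difference of 1.88 ± 0.19 (SE; adjusted p = 2.93e-09). A gene not called for the difference is not shown to change alike in both.

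**Figure D5:**
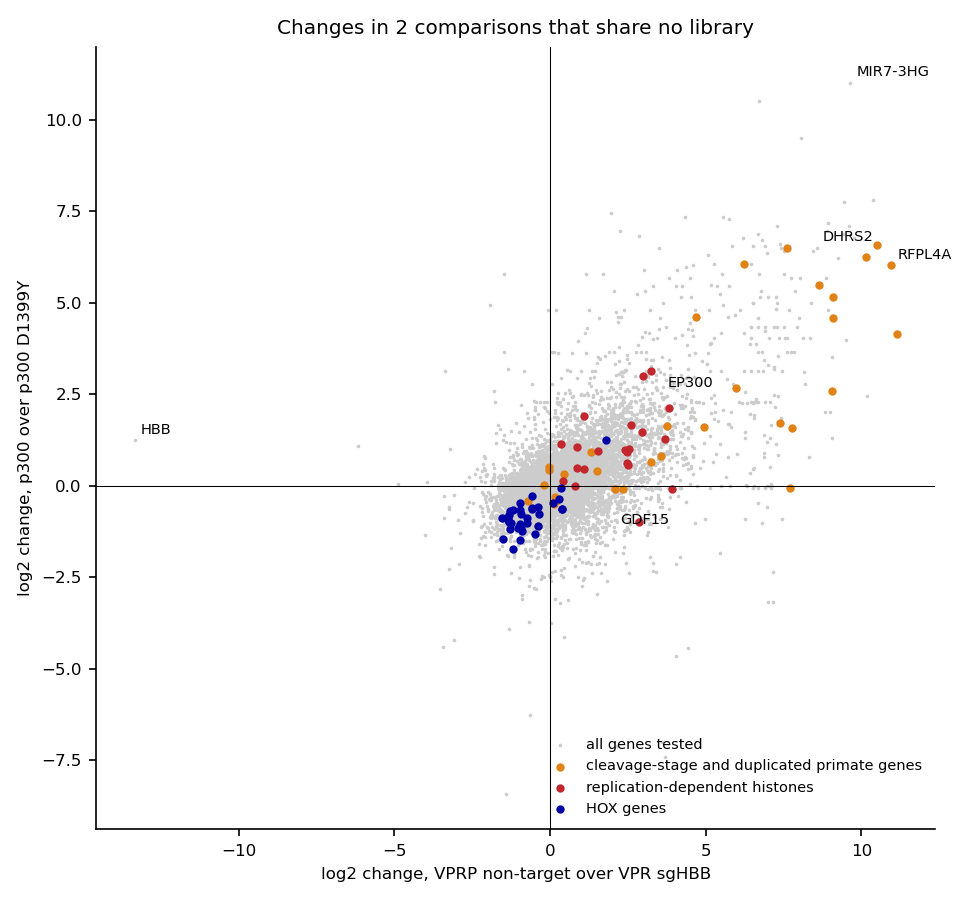
Log2 change of p300 over p300 D1399Y cells (vertical) against that of VPRP non-target over VPR cells (horizontal) for 16694 genes, with cleavage-stage and duplicated primate genes in orange, replication-dependent histones in red and HOX genes in blue. Most HOX genes lie at lower left, most histone and primate genes at right and above 0, and HBB stands alone at far left.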

How the data were processed

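RNA from sorted HEK293 cells was sequenced from poly-A selected, paired-end libraries, per the labels' protocols. The authors deposited raw read counts per gene, in whole numbers. The submitters' processing notes name STAR 2.5, HTSeq 0.6.1, DESeq2 1.24.0, BWA, deepTools and build hg19, with no role or order; the annotation release and strand setting are not given in these sources, so overlapping and antisense genes are uncertain. Symbols matched 33595 of 48162 gene IDs, and the other IDs took 0.767% to 0.896% of the counts. Counts were fitted in R 4.3.3 with edgeR 4.0.16 (filterByExpr, minimum count 10 and total 15; TMM factors; 6 group means over all 12 libraries; quasi-likelihood test). The SE is the log2 change over the square root of F. A count of 0 allows up to 3 counts over a group. The reads carried no molecular identifiers, so floors and intervals hold for counting error alone.

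Members and lists were chosen with earlier results of these data known, so lists are described by counts and medians, with no set test. Of 797 list entries 750 matched a gene of their own. Named are EP300, HBB, RELA, MAGEA10, TWIST2, the 15 largest changes each way (called, at least 2-fold, mean log2 CPM at least 1, libraries separated), the 8 largest by CPM difference, and of each list 4 called and 2 not called members; cell type markers and the genes so marked in the text fall outside this rule. The steps were tested on simulated data. Alternatives were DESeq2 1.42.0, other factors and filters, the 4 libraries alone, a replicate block and each library left out. The 10 H3K27ac samples, 2 with conflicting labels, were not analysed here. Promoters come from RefSeq. Some genes that the naming rule selects are not reported here.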

Additional observations from a re-analysis of the deposited data

Results flagged for a closer look

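For 4 genes with a symbol and a mean log2 CPM of at least 1, the change of VPRP non-target over VPR cells and that of p300 over p300 D1399Y cells were both called, both at least 2-fold, opposite in sign, and called as different from each other. GDF15, a stress-induced cytokine, had 11.6 and 9.86 CPM in VPRP non-target cells, against 2.53 and 2.6 CPM in VPR cells, and 4.59 and 4.24 CPM in p300 cells, against 10.3 and 10.3 CPM in p300 D1399Y cells, a difference of changes of 3.28 ± 0.29 (SE; adjusted p = 2.23e-10). SFN, the epithelial 14-3-3 sigma protein, had 7.11 and 7.59 CPM in VPRP non-target cells, against 1.39 and 1.44 CPM in VPR cells, and 1.71 and 1.88 CPM in p300 cells, against 4.33 and 4.84 CPM in p300 D1399Y cells, a difference of 3.71 ± 0.36 (SE; adjusted p = 1.87e-09). LINC02846, a long non-coding RNA, had 10.1 and 9.92 CPM in VPRP non-target cells, against 2.15 and 1.57 CPM in VPR cells, and 1.59 and 0.824 CPM in p300 cells, against 3.12 and 2.42 CPM in p300 D1399Y cells, a difference of 3.62 ± 0.48 (SE; adjusted p = 9.37e-07). HBB, where the guide differs in the first comparison, had a fitted difference of -14.58, which rests on 0 counts in VPRP non-target cells and is no bound. WT cells had 0.874 and 0.517 CPM for GDF15 and 0.336 and 0.194 CPM for SFN. SFN and LINC02846 were chosen by these rules after their values were seen.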

How the results depend on the processing

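The genes called in VPRP non-target against VPR cells numbered 9225 and stayed within 1.5 times of that under each other setting: 7708 with DESeq2, 8716 with the 4 libraries alone and 7755 to 9531 with 1 library left out (3808 to 4636 higher, 3947 to 4909 lower; at least 2-fold, 2014 to 2430 higher and 567 to 587 lower). The replicate numbers did not pair the samples (r of replicate differences -0.0373 between these groups); with a replicate block 9072 genes were called over the 12 libraries and 8674 over the 4. Scaling factors moved the median log2 change by at most 0.0282. At least 4-fold, 1146 genes were higher and 61 lower; at least 1.5-fold 1755 were lower. Silent genes switched on numbered 135 at 0.5 CPM and 26 at 2 CPM, and 2 switched off at 0.5 CPM.

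With 1 library left out, p300 against p300 D1399Y called 3193 to 5623 genes (3226 without p300 replicate 1, 3193 without p300 D1399Y replicate 1), VPRP sgHBB against VPR 6944 to 8358, the difference of changes 3678 to 5039, VPRP non-target against WT 8715 to 10543, VPR against WT 2548 to 4367 and VPRP non-target against VPRP sgHBB 3185 to 5438. Of 48 named genes followed, 43 kept direction and side of the threshold in each of the 20 settings that tested them. A gene filtered out of a setting was skipped there. RELA, as stated, did not. MAGEA10, with a fitted log2 change of 0.31, did not either, but the pair was chosen for its level, so this is a description. MT-ND3, at 0.30 over all libraries on the log2 scale, ran from -0.0097 without VPR replicate 2 to 0.677 without VPR replicate 1, EEF2 lost its call in 2 settings (adjusted p = 0.128 with a replicate block over 4 libraries, 0.0752 without VPR replicate 1) and RPS2 in 2 (0.0734 with the 4 libraries alone, 0.226 with the block there); the cause was not tested. Counts in 4 lists moved over 1.5 times: globins, as stated, erythroid regulators (2 higher without VPR replicate 2), hypoxia targets (5 higher without VPRP non-target replicate 2) and apoptosis regulators (4 lower with DESeq2). Depth limits what can be said of genes near 0 counts, where ratios have wide intervals.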
